A study of Mus musculus with 46 samples.

Results

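Dnmt mGS cells are cells resembling pluripotent stem cells that were derived from mouse germline stem (GS) cells, the culture form of spermatogonial stem cells, after lentiviral knock-down of p53 and of the DNA methyltransferase gene Dnmt1. They were set against GS cells, the kind of cell they were derived from. The members were chosen by sample title: 6 arrays of Dnmt mGS cells and 6 arrays of GS cells, which are 12 of the 46 arrays in the series. Each of the 2 groups held 3 lines with 2 cultures of every line, so the comparison rested on 6 of the 23 lines. The series as a whole asked how the expression profiles of such induced lines compare with those of embryonic stem (ES) cells and induced pluripotent (iPS) cells.

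All 6 lines were of the DBA/2 strain with a GFP transgene. Dnmt mGS lines had been infected with lentivirus against p53 and Dnmt1 and grew on mouse embryonic fibroblasts (MEFs) in serum medium with leukaemia inhibitory factor (LIF). GS lines had no such treatment and grew on mitomycin-treated MEFs in a low-serum medium with glial cell line-derived neurotrophic factor (GDNF) and basic fibroblast growth factor (FGF2). Virus, medium and cell state therefore changed together and cannot be told apart in this comparison, and GS cells carrying the knock-down without conversion were not analysed here. Beside GS, the Dnmt mGS lines were set against 9 lines induced from GS cells by other routes: 3 Dmrt mGS lines (knock-down of p53 and of the testis transcription factor gene Dmrt1), 3 Sox2 mGS lines and 3 Oct4 mGS lines (lentiviral Sox2 or Oct4 with p53 knock-down). These shared the strain, the p53 knock-down and the medium of Dnmt mGS. The labels do not say whether lines of a group came from separate animals or whether each was a single clone, so p-values rest on the spread between lines and nothing wider. That spread was pooled over all 23 lines of the 8 groups, ES and iPS cells included, and not taken from the compared lines alone.

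Dnmt1 copies CpG methylation onto the newly made strand after DNA replication and is brought to hemimethylated DNA by Uhrf1, while Dnmt3a, Dnmt3b and their cofactor Dnmt3l set methylation anew and the Tet enzymes oxidise it. In somatic and pluripotent cells this methylation helps to keep a set of germline genes with CpG-rich promoters silent and marks 1 parental copy at imprinted genes. GS cells express many of these germline genes. Conversion to a pluripotent state replaces the spermatogonial programme by the network around Oct4 (Pou5f1), Sox2 and Nanog.

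Values are linear array intensities, averaged over the 2 cultures of each line on the log2 scale, and line values are always given for lines 1, 2 and 3 in that order. A gene is said to have passed the test, or to have been called, when limma's p-value, adjusted by the Benjamini-Hochberg method over 19938 genes, was under 0.05. Fold changes are on the log2 scale, with the standard error after the ± sign, and compare 3 Dnmt mGS lines with 3 GS lines or with 9 lines of the other routes. A level of 161, under which 95% of olfactory receptor genes lay, served as background. Where 1 group lay under it, the fold is given as "at least", computed against that level, and where both lay under it no fold is given. Changes on the log2 scale are as fitted, without that limit, so their size is uncertain where a group lay under background. Array medians ran from 219 to 242 in Dnmt mGS and from 228 to 233 in GS, and cultures of the same line correlated at 0.991 to 0.997 over all genes. Dnmt mGS lines correlated less well with each other (0.953 to 0.986) than their cultures did, and the lowest value was between lines 2 and 3.

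The labels were set against marker genes first. Pou5f1 stood at 5299.7, 5563 and 5102 in Dnmt mGS, against 1000.1, 365 and 381 in GS, and Nanog at 7916, 6641 and 5120.3 in Dnmt mGS, against 56.5, 44.9 and 41.8 in GS. Zbtb16 (PLZF), a defining transcription factor of spermatogonia, stood at 151, 142 and 133 in Dnmt mGS, against 8987, 14610.5 and 12036 in GS. The Dnmt mGS lines were high for the pluripotency genes and low for Zbtb16, with no overlap between groups. GS line 1 held more Pou5f1 than GS lines 2 and 3, and also more Sox2 (1807, 331 and 293). Of the defining Sertoli and Leydig cell genes, Amh, Fshr, Nr5a1 and Cyp17a1 lay under background in every Dnmt mGS and GS line, with Amh at 99.4, 94.2 and 101 in Dnmt mGS and 105, 109 and 111 in GS. Of 21 testis somatic genes measured, 3 rose, 2 fell and 16 did not pass, beside 19.1% and 30% of all genes. Among them the Sertoli cell gene Sox9 fell, a call lost without any GS line or Dnmt mGS line 1 or 2 (-0.61 to -0.48). The Leydig cell gene Cyp11a1 rose, a call lost without Dnmt mGS line 3 (0.31). Feeder and fibroblast genes differed widely between lines of the same group: over 30 such genes the geometric mean was 453, 257 and 1487 in Dnmt mGS lines 1, 2 and 3, against 753, 301 and 269 in GS lines 1, 2 and 3. Lines of the other routes ran from 262 to 2174. Of these 30 genes 2 (Fn1 and Sparc) rose and 1 (Twist1) fell against GS (median log2 0.55), beside 19.1% and 30% of all genes. Without GS line 1, 7 rose and 1 fell (median 0.91), without Dnmt mGS line 2, 4 rose and none fell (median 1.10), and without Dnmt mGS line 3, 2 rose and 1 fell (median -0.29). Relative to the other routes none of the 30 passed with limma over lines, beside 8.85% and 10.4% of all genes, but the median was -1.17. With the line as a random block over all arrays, or without Dnmt mGS line 3, 18 were lower (median without line 3 -1.80). Over all 19938 genes, 2688 and 2397 were lower in those settings. The Twist1 call was lost without GS line 2 or 3 (-0.83 and -0.93) or Dnmt mGS line 1 or 2 (-0.76 and -0.71). The high feeder level of Dnmt mGS line 3 is given below beside the results it moves with, and its part in them was not tested. In bulk RNA, fewer cells of a kind and less RNA per cell cannot be told apart.

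Dnmt1 itself was lower in only 2 of the 3 Dnmt mGS lines. Its intensity was 606 and 635 in the cultures of line 1, 2762 and 2742 in those of line 2, and 650 and 643 in those of line 3. GS lines stood at 3132, 2904 and 3062. Lines 1 and 3 thus lay far under every GS line, and line 2, at 2752, lay just under the lowest GS line and inside the range of the other routes (1934 to 2772). The fitted change was -1.55 ± 0.35 on the log2 scale (adjusted p = 0.0012). Without line 2, chosen for its high Dnmt1 value, the change was -2.26, given as a description with no test, and without line 1 or line 3 it was -1.18 or -1.21. The two-sided exact permutation test over 3 lines against 3 gave p = 0.1, the smallest this design can give. When only these 6 lines entered the fit, the adjusted p was 0.065 with the same change of -1.55. Set against the other routes, Dnmt1 was lower (log2 -1.07 ± 0.28, adjusted p = 0.0176), a call that was lost without line 1 (-0.70, adjusted p = 0.167) and without line 3 (-0.73). p53 (Trp53) itself was not analysed here.

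Across all genes, 49.1% of 19938 passed the test against GS: 3814 genes (19.1%) were higher and 5983 (30%) lower in Dnmt mGS. With the dimmest 40% of genes left out, the counts were closer, at 3357 higher and 3716 lower. The shares of 19.1% and 30% set beside each list are over all genes, dim ones included. The median over all genes was -0.13 on the log2 scale. Changes of more than 2-fold were more often higher (1574) than lower (1335) in Dnmt mGS, and so were changes above 4-fold (498 against 310) and above 16-fold (62 against 40). Without Dnmt mGS line 2, the one with Dnmt1 near the GS level, 8738 genes passed, 3439 (17.2%) higher and 5299 (26.6%) lower, of which 8382 were also called in the same direction with all lines. Against GS, 3445 genes were higher and 4899 lower without Dnmt mGS line 1, and 3690 and 5287 without line 3. Leaving out GS line 1, 2 or 3 gave 3741 and 6416, 3307 and 4719, or 3360 and 4534. The lines of the groups did not overlap for 58.4% of genes. Against the other routes 19.2% passed, 1765 (8.85%) higher and 2065 (10.4%) lower in Dnmt mGS. That split depended on the scaling: after quantile normalization it was 1963 higher and 1525 lower, and after centring on the array median 1800 and 1567. It also rested heavily on single lines, since 542 genes passed without Dnmt mGS line 1, 1487 without line 2 and 4450 without line 3. Higher and lower genes then numbered 319 and 223, 702 and 785, and 2053 and 2397. The comparisons with GS and with the other routes share the Dnmt mGS lines.

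Among 22 measured genes of DNA methylation and demethylation, 5 rose, 7 fell and 10 did not pass the test against GS, beside 19.1% and 30% of all genes, with a median log2 fold change of 0.15. The demethylation enzymes split by member. Tet1, a 5-methylcytosine dioxygenase of pluripotent cells, stood at 5951, 5412 and 6259 in Dnmt mGS, against 147, 175 and 102 in GS, at least 36.4-fold higher (5.41 ± 0.16). Tet2, a second such enzyme, stood at 2633, 1584 and 1786 in Dnmt mGS, against 149, 93.1 and 74.7 in GS and was at least 12.1-fold higher. Tet3, the form known for its role in the zygote, ran the other way, at 209, 259 and 216 in Dnmt mGS, against 558, 689 and 572 in GS (-1.41 ± 0.12, adjusted p = 3.55e-08). In each of the 3 genes every Dnmt mGS line lay apart from every GS line.

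**Figure D1:**
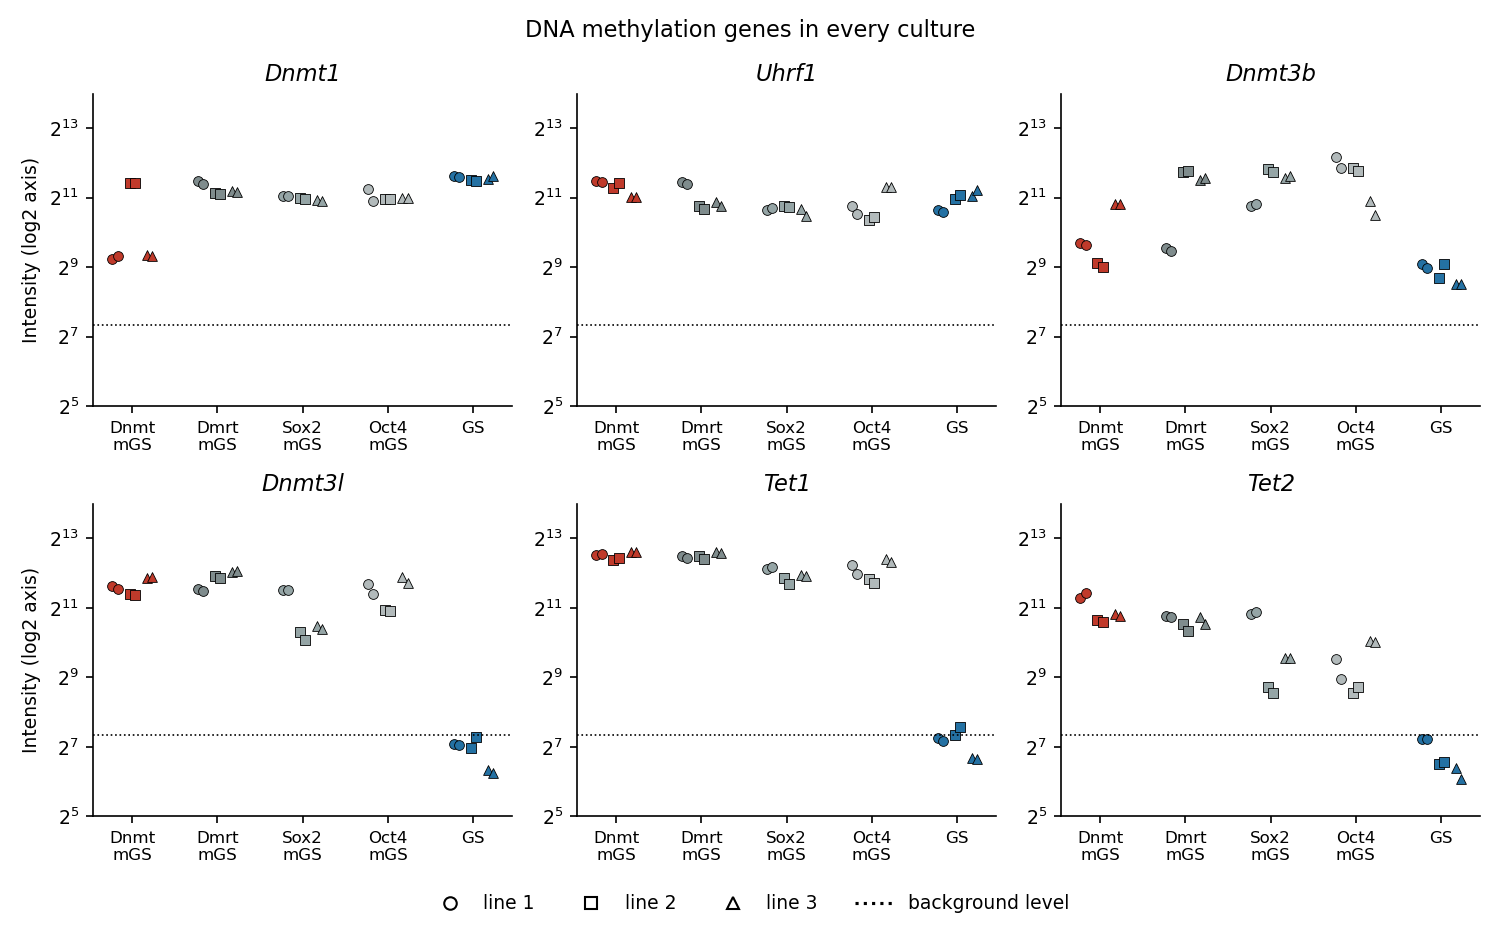
Intensity (log2 axis) of 6 genes of the methylation system in every culture of Dnmt mGS, the Dmrt, Sox2 and Oct4 mGS routes and GS, with marker shape for the line and a dotted line at the background level of 161. Dnmt1 in Dnmt mGS line 2 (2762 and 2742) sits with the other routes and GS, far above lines 1 and 3 (606 to 650), while Tet1, Tet2 and Dnmt3l separate all Dnmt mGS cultures from all GS cultures.

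The other writers of methylation did not move as a set. Dnmt3l, the cofactor without catalytic activity that acts in germ cells and early embryos, stood at 3097, 2672 and 3758 in Dnmt mGS, against 134, 140.2 and 77.9 in GS, at least 19.5-fold higher. Dnmt3b stood at 807, 534 and 1804 in Dnmt mGS, against 526, 474 and 366 in GS. Its lines did not overlap between groups, but it did not pass the test (log2 1.03 ± 0.52, adjusted p = 0.111), and line 3 was more than 2-fold above lines 1 and 2. Dnmt3a (536, 777 and 2070.3 in Dnmt mGS and 963, 848 and 755 in GS) was likewise highest in Dnmt mGS line 3, and its sign turned without that line: the log2 change was 0.16 with all lines and -0.40 without line 3. Line 3 is also the line with the high feeder level, whose part in this was not tested. Uhrf1, the partner that leads Dnmt1 to DNA, read 2829.7, 2622 and 2074 in Dnmt mGS and 1577, 2067 and 2243 in GS and did not pass (log2 0.36 ± 0.21), and Hells, a remodeller needed for methylation, did not either (log2 -0.12). No writer other than Dnmt1 and Dnmt3l passed the test.

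Of 7 genes from families that hold readers of methylated DNA, 3 fell (Zbtb33, Mbd1 and Mbd2), beside 30% of all genes. Zbtb33 (Kaiso), a zinc finger protein that binds methylated CpG, stood at 218, 320.4 and 350 in Dnmt mGS, against 1754, 1939.8 and 1792 in GS, 6.29-fold lower (-2.65 ± 0.30). Mbd1 fell by 0.83 and Mbd2 by 0.67 on the log2 scale. The Mbd2 call was lost without GS line 1 (-0.53). Mbd3 (0.26), Mbd4 (0.19, and -0.07 without Dnmt mGS line 2), Zbtb4 (0.22) and Zbtb38 (0.14) did not pass. Apobec1, a cytidine deaminase, rose (2.29 ± 0.33), at 545, 526 and 735 in Dnmt mGS and 235, 89.1 and 86.5 in GS. Gadd45b, a stress gene linked to DNA demethylation, also rose (2062, 2966 and 862 in Dnmt mGS and 778, 655 and 596 in GS, adjusted p = 0.0386), but that call was lost without Dnmt mGS line 1 (1.25) or 2 (0.99) and without any GS line (1.29 to 1.48). Gadd45a did not pass, and its change of 0.06 turned to -0.41 without Dnmt mGS line 3. Dmap1, a Dnmt1-associated protein, and Trdmt1, a tRNA methyltransferase once named Dnmt2, fell slightly (-0.32 and -0.46). Dmap1 lost its call without GS line 3 (-0.285) or Dnmt mGS line 3 (-0.20), and Trdmt1 without GS line 3 (-0.41) or Dnmt mGS line 1 (-0.39). Uhrf2, a relative of Uhrf1, did not pass (log2 -0.36).

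Relative to the other induced routes, 5 of the 22 genes passed: Tet2 and Dmap1 were higher in Dnmt mGS, and Dnmt1, Dnmt3b and Tet3 were lower, beside 8.85% and 10.4% of all genes. Tet2 averaged 1953 in Dnmt mGS and 932 in the other routes (log2 1.07 ± 0.35, adjusted p = 0.0443), but its call was lost without any single Dnmt mGS line (0.85, 1.22 and 1.13 without lines 1, 2 and 3). Dnmt3b averaged 919 in Dnmt mGS and 2485 in the other routes (log2 -1.43 ± 0.43), a call lost without line 1 (-1.34) or line 2 (-1.04). Tet3 was lower (log2 -0.44 ± 0.10), a call lost without line 1 (-0.38). Dmap1 was higher by 0.31 on the log2 scale, lost without line 1 (0.23) or line 2 (0.27). Uhrf1 and Tet1 did not pass (0.47 and 0.34).

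Germline genes that promoter methylation is known to hold silent in other cells fell in Dnmt mGS, and 19 of 37 stayed above the level of the other routes. Of 37 measured members 28 fell, 1 rose and 8 did not pass against GS, with a median log2 fold change of -2.73, beside 30% and 19.1% of all genes. When only the 2 groups compared entered the fit, 31 fell and 2 rose, beside 4971 and 3465 of all genes. For 36 of the 37 the lines of the groups did not overlap, beside 58.4% of all genes. Over all 37 the geometric mean was 325, 321 and 270 in Dnmt mGS lines 1, 2 and 3, against 2131, 2117 and 1948 in GS lines 1, 2 and 3. The 9 lines of the other routes ran from 137 to 267, so all 3 Dnmt mGS lines lay above all of them, line 3 narrowly. Line 2, with Dnmt1 near the GS level, read 321 beside 325 in line 1. Those 19 were higher than in the other routes, none of the 37 was lower and 18 did not pass, beside 8.85% and 10.4% of all genes. The median difference was 0.63 on the log2 scale, against -0.06 over all genes. Without Dnmt mGS line 1 the count was 8 (1.6% of all genes were then higher), without line 2 it was 12 (3.52%) and without line 3 it was 18 (10.3%). After quantile normalization it was 20.

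Of those 19 genes, both groups lay above background for 6, only the other routes lay under it for 9, and both lay under it for 4 (Tex101, Taf7l, Magea5 and Xlr). Promoters of 5 germline genes are shown to give the CpG content of these starts, from 250 bases before to 50 bases after the gene start (RefSeq, GRCm38.p6), 5′ to 3′ on the gene's strand, with each CpG in capitals. Smc1b (chr15:85131908-85132207, minus strand), Gtsf1 (chr15:103430378-103430677, minus strand) and Slc25a31 (chr3:40708621-40708920, plus strand) had the 3 largest differences from the other routes in the list. Mageb4 (chrX:86256170-86256469, minus strand) and Tuba3b (chr6:145615713-145616012, plus strand) fell steeply against GS and did not pass against the other routes.
Smc1b: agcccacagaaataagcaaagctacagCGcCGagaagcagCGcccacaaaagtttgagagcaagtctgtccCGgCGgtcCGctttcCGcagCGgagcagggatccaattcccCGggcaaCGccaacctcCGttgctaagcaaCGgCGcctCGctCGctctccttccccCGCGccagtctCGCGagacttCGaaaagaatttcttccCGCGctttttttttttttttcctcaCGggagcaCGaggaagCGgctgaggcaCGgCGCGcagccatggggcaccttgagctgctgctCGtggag
Gtsf1: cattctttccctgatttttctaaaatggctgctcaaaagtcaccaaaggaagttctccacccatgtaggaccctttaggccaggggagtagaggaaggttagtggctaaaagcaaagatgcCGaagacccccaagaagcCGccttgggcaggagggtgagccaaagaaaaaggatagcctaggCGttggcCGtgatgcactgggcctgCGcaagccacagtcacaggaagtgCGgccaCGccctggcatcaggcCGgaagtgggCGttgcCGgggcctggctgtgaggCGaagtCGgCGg
Slc25a31: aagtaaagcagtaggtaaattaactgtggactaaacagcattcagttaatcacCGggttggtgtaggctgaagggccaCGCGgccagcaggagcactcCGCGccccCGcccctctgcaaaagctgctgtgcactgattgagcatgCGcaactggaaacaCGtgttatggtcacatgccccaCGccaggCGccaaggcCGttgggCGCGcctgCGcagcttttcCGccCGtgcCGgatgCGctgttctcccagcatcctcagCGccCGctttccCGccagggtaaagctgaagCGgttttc
Mageb4: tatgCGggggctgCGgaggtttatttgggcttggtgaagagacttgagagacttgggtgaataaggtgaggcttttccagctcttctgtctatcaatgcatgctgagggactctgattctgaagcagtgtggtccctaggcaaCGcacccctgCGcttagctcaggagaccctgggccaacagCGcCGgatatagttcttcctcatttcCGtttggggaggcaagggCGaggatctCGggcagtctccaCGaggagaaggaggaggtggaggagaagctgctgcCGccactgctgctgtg
Tuba3b: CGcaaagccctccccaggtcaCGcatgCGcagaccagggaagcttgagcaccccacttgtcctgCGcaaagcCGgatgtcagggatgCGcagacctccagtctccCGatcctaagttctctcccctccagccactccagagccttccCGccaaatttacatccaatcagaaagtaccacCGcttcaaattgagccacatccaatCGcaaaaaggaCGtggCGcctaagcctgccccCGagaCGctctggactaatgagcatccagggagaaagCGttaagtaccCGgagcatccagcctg
These windows hold 29, 13, 22, 11 and 16 CpGs in the order printed. The windows of 31 of the 37 genes were in the reference, with a median of 17 CpGs (0 to 41), beside 7 over all 27025 promoters of that length. The E-box CACGTG, the core bound by Max dimers, was found on either strand in 14 (45.2%), against 1957 (7.24%) of all promoters. The motif TCCCGC, the core bound by E2F factors such as E2f6, was found on either strand in 12 (38.7%), against 5410 (20%) of all. Genes higher than in the other routes (17 with a window) had a median of 19 CpGs, with the E-box in 7 (41.2%) and the E2F-type motif in 7 (41.2%). Genes not called against them (14) had a median of 15.5, with the motifs in 7 (50%) and 5 (35.7%). Neither motif contains the other, but both contain a CpG. Promoters of like CpG content were not compared, so motif share and CpG content cannot be told apart here. The list was chosen for genes known to be held by methylation, so its CpG content is a description of that choice.

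Highest above the other routes was Smc1b, a cohesin subunit of meiotic chromosomes, at 755, 657 and 591 in Dnmt mGS, against 1931, 1347 and 1392 in GS. The other routes ran from 45.2 to 460.2, so no line of theirs reached a Dnmt mGS line, and the mean of Dnmt mGS was at least 4.12-fold higher (log2 2.64 ± 0.60, adjusted p = 0.00908). That call was lost without line 1 (2.55, adjusted p = 0.0636), and against GS Smc1b did not pass (log2 -1.21 ± 0.73, adjusted p = 0.177). All its Dnmt mGS lines lay under its GS lines, with log2 standard deviations of 0.18 and 0.29 within the groups. The standard error rests on the spread in all 8 groups, so the missed call does not show that Smc1b was unchanged. Gtsf1, a piRNA pathway factor, stood at 769.9, 318 and 461 in Dnmt mGS, against 1687, 1619 and 1345 in GS, with the other routes at 34 to 212. It fell against GS (-1.67 ± 0.48) and was at least 3-fold above the other routes (log2 2.62 ± 0.39, adjusted p = 0.00142). Slc25a31 (Ant4), the ADP/ATP carrier of meiotic cells, stood at 725, 755 and 405 in Dnmt mGS, against 5734, 4694 and 4246 in GS, with the other routes at 97.9 to 445. Only Dnmt mGS line 3 lay inside the range of the other routes for this gene. Sycp1, a core protein of the synaptonemal complex, stood at 444, 592 and 361 in Dnmt mGS, against 2784, 2882 and 2389 in GS, with the other routes at 88.2 to 333 (log2 1.502 ± 0.20). The calls of Gtsf1, Slc25a31, Sycp1, Asz1, Stk31, Tex101 and Xlr against the other routes were kept when any 1 of the 3 Dnmt mGS lines was left out.

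Mael, a piRNA factor at 4583, 4363 and 4067 in Dnmt mGS, against 7115, 8153 and 7455 in GS, and Rpl10l, a ribosomal protein gene of spermatocytes at 2073, 1962 and 2108 in Dnmt mGS, against 3584, 3773 and 3036 in GS, lay under every GS line but did not pass against GS. The other routes ran from 1005 to 3396 for Mael, under every Dnmt mGS line, and from 331 to 2248 for Rpl10l. Their calls against the other routes were lost without line 1 (1.24 for Mael and 1.27 for Rpl10l), and that of Rpl10l also without line 2 (1.31). Hormad1, which marks unsynapsed chromosome axes, was at 1693, 1743 and 1761 in Dnmt mGS and 1327, 1129.5 and 1137 in GS and did not pass against GS. Against the other routes it was higher by 1.12 and lost that call without any single Dnmt mGS line (1.13, 1.11 and 1.11). Syce1 (1239.6, 1086 and 619.5 in Dnmt mGS and 1300, 1284 and 1284 in GS), a central element protein of the synaptonemal complex, did not pass against GS and was higher than the other routes by 1.39, lost without line 1 (1.19) or line 2 (1.28). Rhox6, Rnf17 and Usp26 did not pass either comparison, with Rnf17 at log2 -0.67 and Usp26 at -0.95 against GS, and the lines of Rhox6 overlapped between groups. Dazl, an RNA-binding protein of germ cells, fell to 1365, 2094 and 617 in Dnmt mGS, against 16328, 15438 and 15426 in GS, and remained 3.24-fold above the other routes, a call lost without line 1 (1.61) or line 2 (1.30).

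The steepest falls brought genes to or near background. Mageb4, an X-linked member of the melanoma antigen family, stood at 80.1, 87.2 and 93.9 in Dnmt mGS, against 7528, 10899 and 9403 in GS, at least 56.9-fold lower. Nxf2, an X-linked RNA export factor, stood at 386, 161 and 192 in Dnmt mGS, against 16580.1, 15669 and 12653 in GS, 65-fold lower. Tuba3b, a testis alpha-tubulin, stood at 164, 119.6 and 145 in Dnmt mGS, against 9023, 8751 and 8874 in GS, and Tdrd1, a Tudor protein of the piRNA pathway, at 86.3, 86.8 and 98 in Dnmt mGS, against 4744, 4245 and 2773 in GS. These are at least 55.1-fold and at least 23.7-fold lower. At least 1 Dnmt mGS line of Mageb4, Tuba3b and Tdrd1 lay inside the range of the other routes (54.5 to 84.7, 81.1 to 141 and 84.5 to 129). Tuba3b has a near-identical copy, Tuba3a, and members of the Mage, Rhox and Xlr families resemble each other. These genes, and Nxf2 as well, may share probes with near-identical copies, and their values are uncertain in that respect. Against the direction of the list, Rhox9, a placental and germline homeobox gene, rose (348, 325 and 376 in Dnmt mGS, against 252, 139 and 119.7 in GS, log2 1.11 ± 0.37), a call lost without GS line 2 (1.005), GS line 3 (0.90) or Dnmt mGS line 3 (1.06).

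**Figure D2:**
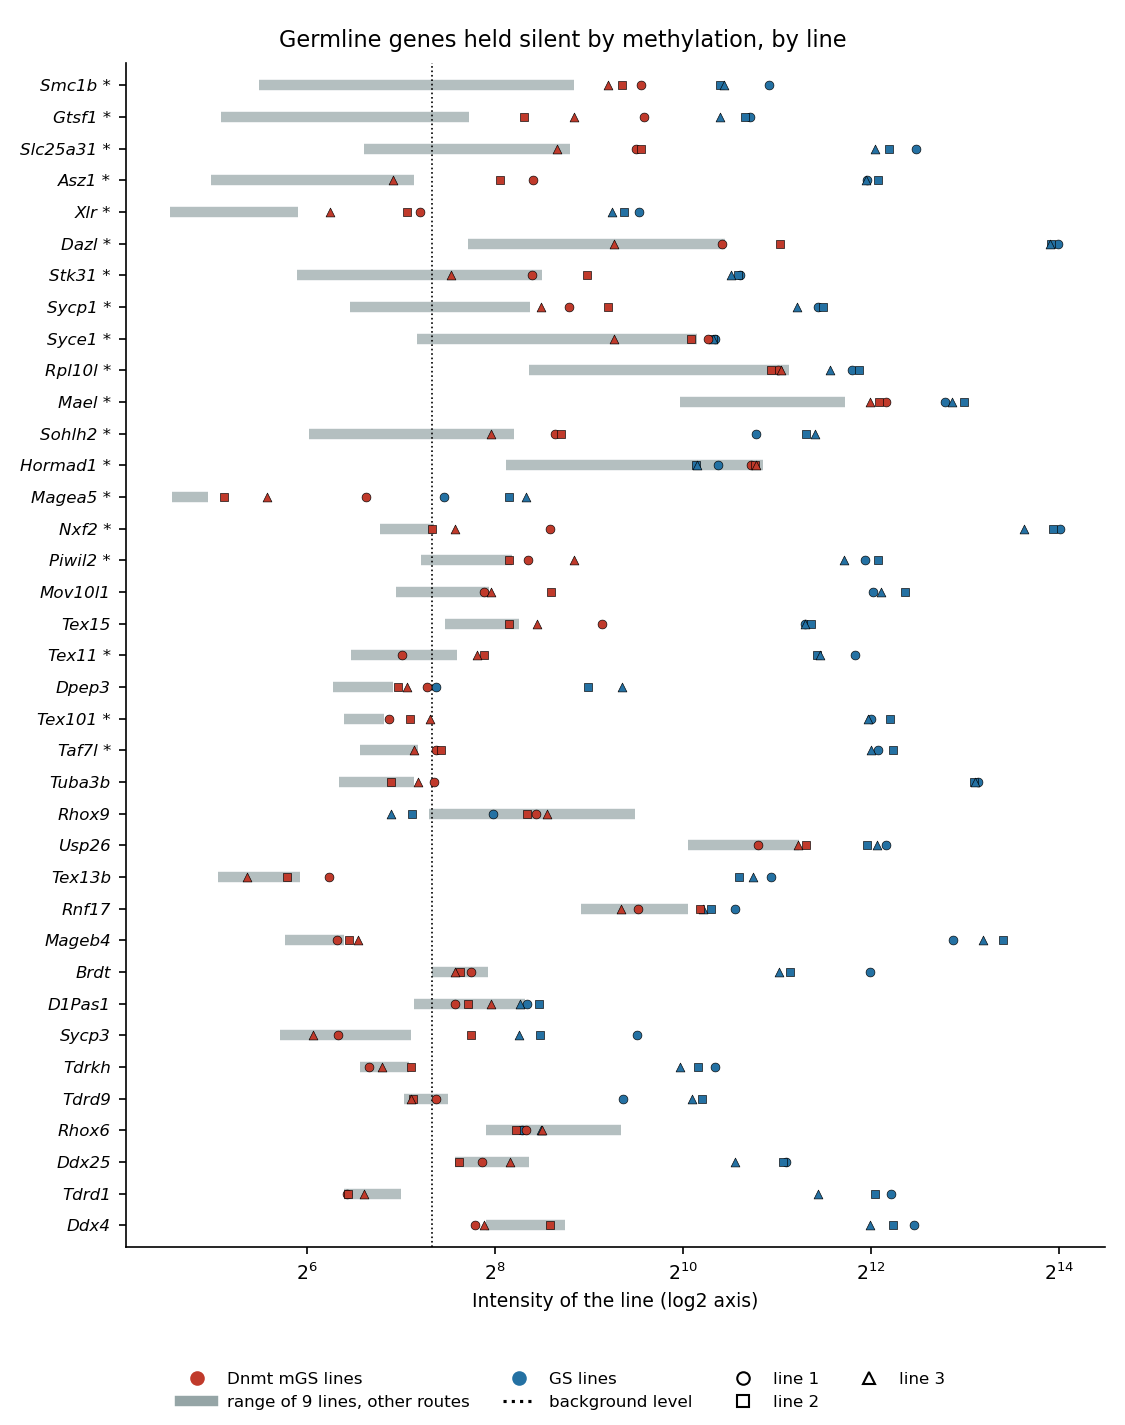
Intensity (log axis) of the 37 germline genes, ordered by their difference from the other routes: red points are the 3 Dnmt mGS lines, grey bars the range of the 9 lines of the other routes and blue points the 3 GS lines. An asterisk marks the 19 genes called higher than in the other routes, and Smc1b (Dnmt mGS 591 to 755, other routes 45.2 to 460.2) is the first of them.

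The wider list of meiosis and piRNA genes, which shares 15 genes with the list above, showed the same 2 comparisons side by side: 29 of 42 fell, 1 rose and 12 did not pass against GS (median -1.56, beside 30% and 19.1% of all genes), while 16 were higher and 3 lower than in the other routes (median 0.38, beside 8.85% and 10.4%). Without Dnmt mGS line 1 the counts against the other routes were 6 and 0 (319 and 223 over all genes). Without line 2 they were 9 and 0 (702 and 785), and without line 3 they were 18 and 3 (2053 and 2397). The falls were steepest for Tdrd1, Tdrd5, Asz1 and Sycp2, of which the first 3 act in the piRNA pathway. Tdrd5 stood at 153, 113 and 206 in Dnmt mGS and 3411, 3259.6 and 3056 in GS (at least 20.1-fold lower), and the axis protein gene Sycp2 at 152, 120.2 and 141 in Dnmt mGS and 2578, 2719.8 and 2179.9 in GS (at least 15.4-fold lower). Ddx4 (Vasa), the RNA helicase that marks germ cells, stood at 221, 385 and 236 in Dnmt mGS and 5648, 4840.5 and 4092 in GS (17.7-fold lower). Mlh3, a mismatch repair gene with roles outside meiosis as well, rose (741, 741 and 700 in Dnmt mGS and 329.8, 322 and 365 in GS, log2 1.10).

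Recombination genes stayed unevenly. Rec114, which acts in forming meiotic DNA breaks, stood at 539, 850.1 and 412 in Dnmt mGS, against 758, 658 and 609.6 in GS and did not pass against GS (log2 -0.23 ± 0.58). Hormad2, a partner of Hormad1, stood at 328, 668 and 328 in Dnmt mGS, against 392, 383 and 319.5 in GS and did not pass either (log2 0.20 ± 0.54). The other routes ran from 46.8 to 758 for Rec114 and from 45.5 to 548 for Hormad2, and Dnmt mGS was higher by 2.42 ± 0.47 and 2.10 ± 0.44 on the log2 scale (adjusted p = 0.00454 and 0.00652). Line 2 was the highest Dnmt mGS line for both. Tex12, a further synaptonemal protein, stood at 153, 271 and 136 in Dnmt mGS and 1303, 1216 and 944 in GS, with the other routes at 30.2 to 152 (log2 1.67 ± 0.27). Dmc1, the meiotic recombinase, was at 587, 799.6 and 441 in Dnmt mGS and 606, 520.5 and 586 in GS and passed neither comparison. Spo11, the enzyme that cuts DNA in meiosis, fell to 69.3, 78.6 and 69.2 in Dnmt mGS, all under background, against 304, 1054 and 662 in GS. Lower than in the other routes were Rad21l and Tdrd5 (-0.67 and -0.89), both calls lost without line 1 (-0.61 and -0.89) or line 2 (-0.68 and -0.67), and Tdrd6, which lay under background throughout.

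X-linked testis antigen families fell in 18 of 26 members, rose in 1 and did not pass in 7 (median -0.98), beside 30% and 19.1% of all genes. Besides those given, Tktl1, a transketolase-like gene, stood at 430.4, 535 and 398 in Dnmt mGS, against 7622, 8066 and 7967 in GS (17.5-fold lower), Tex13b at 75.7, 55.4 and 41.4 in Dnmt mGS and 1968, 1552 and 1722 in GS (at least 10.8-fold lower) and Taf7l, a germ cell form of a TFIID subunit, at 166, 173 and 141 in Dnmt mGS and 4335, 4820.4 and 4121 in GS (at least 27.4-fold lower). Of the 26, 8 were higher than in the other routes and none was lower, beside 8.85% and 10.4% of all genes, but 4 of the 8 lay under background in both. Tktl1 (144 to 396 in the other routes, log2 1.001 ± 0.18) and Rhox13, a homeobox gene of the testis (308, 251 and 193 in Dnmt mGS, 522, 466 and 493 in GS and 94.3 to 177 in the other routes), kept their calls without any single Dnmt mGS line. In both genes every Dnmt mGS line lay above every line of the other routes. Without line 1 the count of 8 was 4, and without line 2 it was 7, when 319 and 702 of all genes were higher.

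Factors that silence germline genes beside DNA methylation changed in both directions. Of 29 measured members of the PRC1.6 complex and of the H3K9 methylation and KAP1 pathways, 13 rose, 7 fell and 9 did not pass (median 0.24), beside 19.1% and 30% of all genes. E2f6, the E2F factor that leads PRC1.6 to germline promoters, stood at 659, 605 and 641 in Dnmt mGS, against 1906, 2024 and 1752 in GS, 2.98-fold lower (-1.57 ± 0.18). Of the other PRC1.6 subunits, L3mbtl2 rose by 0.93, Rybp by 1.03, Max by 0.60 and Pcgf6 by 0.41 on the log2 scale, and Rnf2 rose as well. Ring1 (log2 -0.39) and Hdac2 (-0.41) fell, while Mga (0.03), Wdr5, Cbx3 and Hdac1 did not pass. The heterochromatin protein gene Cbx1 rose (2048, 1858 and 2005 in Dnmt mGS and 806, 689.6 and 737 in GS, log2 1.41), and so did Zfp809, a zinc finger repressor of retroviral DNA (1145, 1198 and 2172 in Dnmt mGS and 402, 329.6 and 483 in GS, log2 1.85). Zfp57, the zinc finger protein that guards methylation at imprinted genes, stood at 6582, 5966 and 5514 in Dnmt mGS, against 718, 1158 and 1083 in GS, 6.22-fold higher (2.64 ± 0.23). Dnmt mGS lines 1 and 2 lay above all lines of the other routes (2514 to 5788), and line 3 lay inside their range. The H3K9 methyltransferase genes Ehmt2 (G9a), Setdb1 and Suv39h2 fell (-0.78, -0.64 and -0.61), and Tfdp1, the dimer partner of E2F factors, fell by 0.69.

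Compared with the other routes, 4 of these 29 were higher (Zfp57, Morc3, Rybp and Mga) and E2f6 was lower, beside 8.85% and 10.4% of all genes. Morc3, a chromatin ATPase, was at 2459, 2771 and 2296 in Dnmt mGS, 2156, 2029 and 2021 in GS and 1364 to 2228 in the other routes, with no overlap with those routes (log2 0.46 ± 0.09, adjusted p = 0.00533). Without line 1 the calls of Zfp57 (0.64), Rybp (0.38), Mga (0.32) and E2f6 (-0.49) were lost, and without line 2 those of Zfp57 (0.71), Mga (0.17) and E2f6 (-0.43). E2f6 was also lost without line 3 (-0.47).

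Polycomb group 2 and trithorax genes passed in 18 of 21 cases, beside 49.1% of all genes, 10 higher and 8 lower (median 0.06, beside 19.1% and 30%). The PRC2 core rose, with Ezh2 at 4352, 4503 and 3831 in Dnmt mGS, against 2097, 1938 and 2295 in GS (log2 1.003 ± 0.08), Suz12 by 0.82 and Eed by 0.75. The catalytic alternative Ezh1 did not pass (-0.41). The X-linked demethylase gene Kdm5c, which acts on H3K4, rose most (1826, 1793 and 1436 in Dnmt mGS and 529, 398 and 394 in GS, log2 1.94), and the PRC2 cofactor gene Phf19 rose by 1.13. Cbx7, the CBX subunit of pluripotent cells, rose (1.25), while Cbx2 (-1.34), Cbx8 (-0.68), Bmi1 (594, 529 and 364 in Dnmt mGS and 1681, 1586 and 1160.1 in GS, log2 -1.59) and the demethylase genes Kdm5a (-1.08) and Kdm6b (-0.92) fell. Of the 21 members 5 (Eed, Suz12, Mtf2, Aebp2 and Cbx8) were higher than in the other routes, by 0.31 to 0.58, beside 8.85% of all genes. None of them passed without line 1 (0.31 to 0.51), and only Eed did without line 2, when 319 and 702 of all genes were higher.

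Imprinted genes moved in both directions. Of 21 paternally expressed genes 7 rose, 4 fell and 10 did not pass against GS (median 0.28), beside 19.1% and 30% of all genes. Without GS line 2 or Dnmt mGS line 2 only 2 fell. Peg3, a zinc finger gene, stood at 1411, 3139 and 4212 in Dnmt mGS, against 612, 369 and 409 in GS (5.87-fold higher), Impact, a regulator of translation, at 2388, 2919 and 2441 in Dnmt mGS, against 829, 459 and 432 in GS (4.7-fold higher), Plagl1 (Zac1), a zinc finger growth regulator, at 770, 719.6 and 573 in Dnmt mGS and 207, 433 and 331 in GS and Slc38a4, an amino acid transporter, at 3302, 3693 and 2881 in Dnmt mGS and 2138, 1632 and 1237 in GS. Their lines did not overlap between groups. Mest, a hydrolase-like gene, rose as well (0.96), a call lost without Dnmt mGS line 3 (0.68). Inpp5f, an inositol phosphatase gene with an imprinted variant, fell (119.9, 74.8 and 221 in Dnmt mGS and 936, 766 and 896 in GS, at least 5.35-fold lower), and so did Ndn, a MAGE family gene (438, 376 and 978 in Dnmt mGS and 1577, 1538 and 1439 in GS, log2 -1.48), whose call was lost without GS line 2 (-1.47), Dnmt mGS line 1 (-1.32) or line 2 (-1.21). Rasgrf1 lay under background in both group means. Peg12 fell by 0.26, lost without GS line 2 or 3 or Dnmt mGS line 2 or 3 (-0.29, -0.21, -0.22 and -0.25).

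Several genes of this list were lowest in line 2 and highest in line 3. Nnat (neuronatin) stood at 435, 203 and 1328 in Dnmt mGS, against 593, 572 and 642 in GS, Peg10 at 1589, 661 and 5492 in Dnmt mGS, against 1693, 1184 and 925 in GS, Igf2, the fetal growth factor, at 1296, 531 and 3655 in Dnmt mGS, against 1533, 855 and 1406 in GS, and Sgce at 205, 128 and 503 in Dnmt mGS, against 367, 149 and 136 in GS. None of the 4 passed against GS (log2 -0.30, 0.55, 0.15 and 0.28), and Dnmt mGS line 2 was under every GS line in all 4 but not far from it for Sgce. The order of the Dnmt mGS lines in these genes, line 2 below line 1 below line 3, is also the order of their feeder levels (257, 453 and 1487), and the part of feeder cells was not tested. Relative to the other routes, 7 paternally expressed genes were lower and none was higher (median -0.48), beside 10.4% and 8.85% of all genes. In the same comparison the median of the feeder and fibroblast genes was -1.17, whose part was not tested. The 7 were Nnat, Sgce, Mest, Impact, Magel2, Peg12 and Nap1l5, the last under background. Nnat averaged 489 in Dnmt mGS and 2342 in the other routes (log2 -2.26 ± 0.65), and Mest averaged 1339 in Dnmt mGS and 3152 in the other routes (log2 -1.24 ± 0.26). Without line 1 none of the 7 passed (Nnat -2.17, Sgce -1.35, Mest -1.14), when 223 of all genes were lower. Without line 2 there was 1 lower and 1 higher gene (785 and 702 of all genes). Without line 3 there were 10 lower (2397 of all genes), and after quantile normalization or centring 1 was higher and 5 were lower.

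Of 19 maternally expressed genes 8 rose, 3 fell and 8 did not pass against GS (median 0.13), beside 19.1% and 30% of all genes. Cobl, an actin nucleator, stood at 1876, 1039 and 1108 in Dnmt mGS, against 95.9, 142 and 119 in GS (at least 8.02-fold higher). The noncoding RNA genes of the Dlk1 domain both rose: Meg3 stood at 3503, 1258 and 3638 in Dnmt mGS, against 693, 181 and 203 in GS (8.57-fold higher) and Rian at 808, 221 and 742 in Dnmt mGS, against 94.6, 105 and 93.5 in GS (at least 3.16-fold higher). Line 2 was the lowest Dnmt mGS line in both. Dlk1, the paternally expressed gene of that domain, stood at 401, 218 and 779 in Dnmt mGS and 609, 977 and 740.3 in GS and did not pass (log2 -0.90 ± 0.57). Phlda2, a gene that limits placental growth, stood at 5031, 3146 and 5305 in Dnmt mGS and 983, 860.3 and 515 in GS (5.78-fold higher), and its neighbour Cdkn1c (p57), a cell cycle inhibitor, ran the other way (258, 228 and 342 in Dnmt mGS and 464, 448 and 430.5 in GS, log2 -0.72). Klf14 fell slightly (log2 -0.28). Gatm, of creatine synthesis, fell (88.6, 92.5 and 157 in Dnmt mGS and 427, 449.5 and 285 in GS), a call lost without GS line 1 or 2 (-1.72 and -1.68) or Dnmt mGS line 1 or 2 (-1.66 and -1.69). Igf2r did not pass (log2 -0.03). Compared with the other routes, Cobl was higher (1.39, lost without line 1 at 1.12 or line 2 at 1.54), and Gatm and Calcr were lower (-1.94 and -1.37, both lost without line 1 or line 2), beside 8.85% and 10.4% of all genes.

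**Figure D3:**
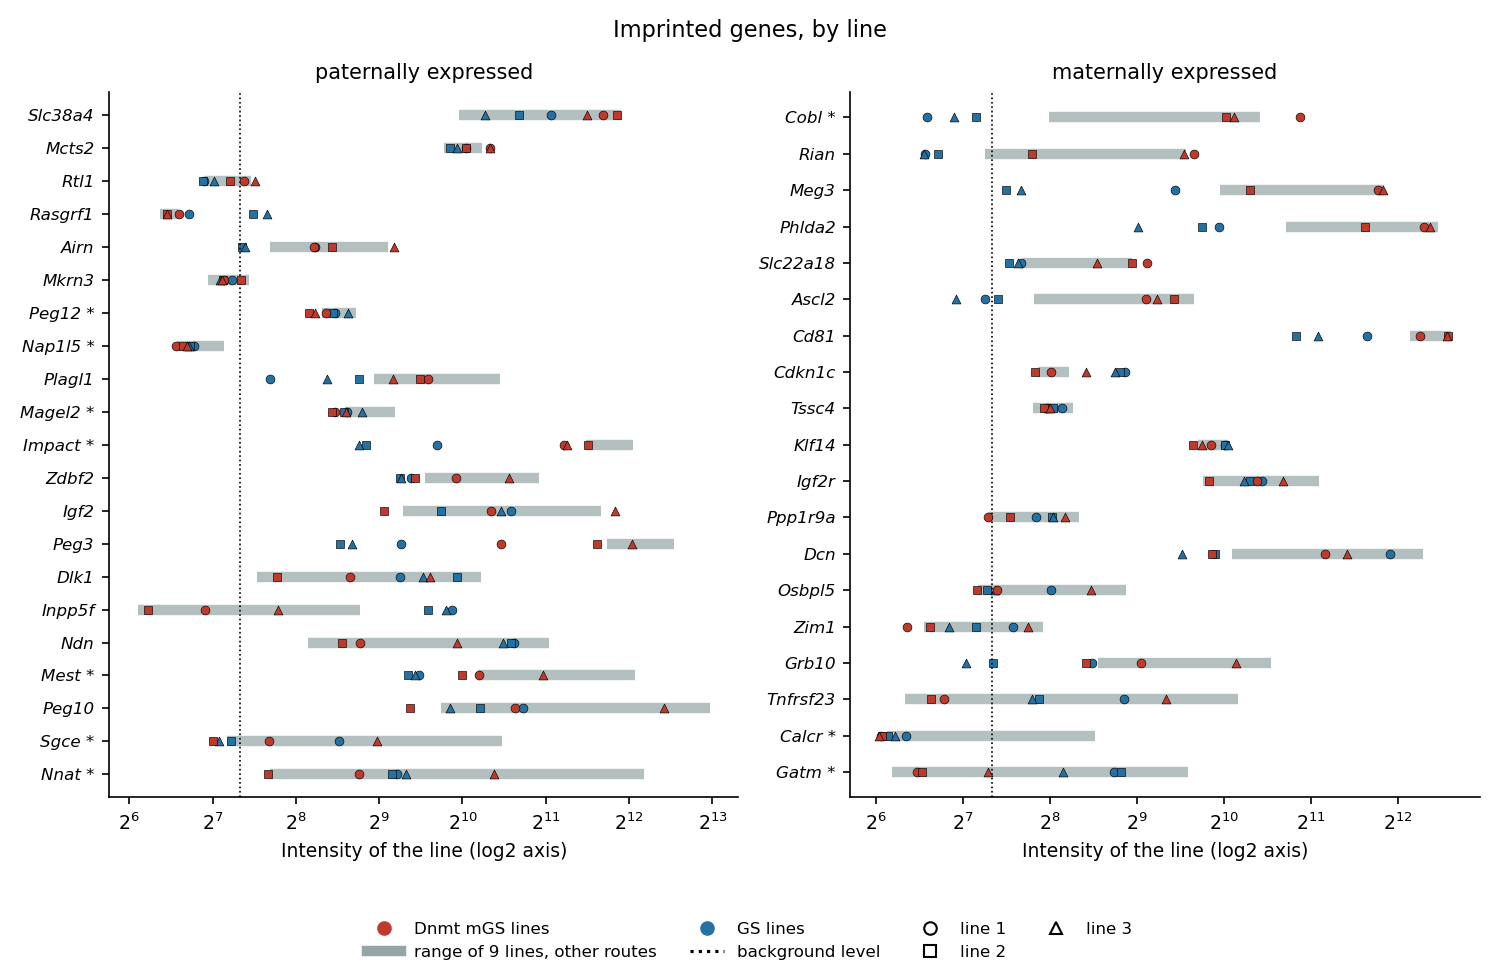
Intensity (log axis) of paternally and maternally expressed imprinted genes in 2 panels: red points are the 3 Dnmt mGS lines, grey bars the range of the 9 lines of the other routes and blue points the 3 GS lines. Asterisks mark calls against the other routes, such as Nnat (Dnmt mGS 203 to 1328, other routes 206 to 4621).

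Pluripotency genes rose almost throughout: 30 of 37 rose, 2 fell and 5 did not pass against GS (median 3.24), beside 19.1% and 30% of all genes. Besides Nanog (at least 40-fold higher) the highest were Nr0b1 (Dax1), a nuclear receptor of ES cells (3868, 3289 and 3813 in Dnmt mGS, against 43.5, 36.1 and 36.8 in GS, at least 22.6-fold higher), the Nodal co-receptor gene Tdgf1 (5294, 2711 and 5593 in Dnmt mGS and 48.9, 56.2 and 50.4 in GS, at least 26.8-fold), and the growth factor gene Fgf4 (3358, 4159.5 and 2528 in Dnmt mGS and 70.1, 103 and 60.7 in GS, at least 20.4-fold). Stat3, the transcription factor downstream of LIF, fell (1433, 985 and 1422 in Dnmt mGS and 3031, 3013 and 2913 in GS, log2 -1.24 ± 0.16) and thus stood lower in the cells grown with LIF. Trim71, an RNA-binding protein gene, fell too (1789, 1574 and 1796 in Dnmt mGS and 2190.3, 3409 and 3148 in GS). Members that did not pass were Nr5a2 (log2 0.03), Dppa3 (1.06), Sall1 (-0.34), Lin28a (-0.37) and Tcl1 (1.20). Tcl1, an Akt cofactor, was at 2348, 2799.9 and 1059 in Dnmt mGS and 689.5, 778 and 1073 in GS.

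In comparison with the other routes, 11 of the 37 pluripotency genes were higher and 4 lower (median 0.29), beside 8.85% and 10.4% of all genes. Among the higher genes were Tfcp2l1 at 4730, 3217 and 1971 in Dnmt mGS and 519.9, 438 and 391 in GS, with the other routes at 221 to 3191 (log2 2.28 ± 0.55), and Tbx3 at 3653, 2457 and 1670.3 in Dnmt mGS and 241, 317 and 232 in GS, with the other routes at 292 to 2317 (log2 1.93 ± 0.52). In both, line 1 was the highest and line 3 the lowest Dnmt mGS line, and the other routes spread more widely than Dnmt mGS. Tfcp2l1 lost its call without line 1 (1.97) and Tbx3 without line 1 (1.64) or line 2 (1.93). Tcl1 (2.44) and Esrrb (1.74) lost theirs without line 1 (2.29 and 1.58) or line 2 (2.165 and 1.74), and Esrrb also without line 3 (1.88). Of the 4 lower genes, Lin28a averaged 872 in Dnmt mGS and 1749.7 in the other routes (log2 -1.005, lost without line 1 at -0.93 or line 2 at -0.71). L1td1 (log2 -0.54), Zscan10 (-0.51) and Sall4 (-0.37) were lower too, each call lost without line 1, those of L1td1 and Zscan10 also without line 2, and that of Zscan10 also without line 3. Without line 1 none of the 37 passed in either direction, and without line 2 there were 3 higher and 1 lower. Over all 19938 genes, only 542 passed without line 1 and 1487 without line 2.

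Spermatogonial stem and progenitor genes fell in 25 of 35 members, rose in 6 and did not pass in 4 (median -1.59), beside 30% and 19.1% of all genes. Zbtb16 was at least 72.2-fold lower, the receptor tyrosine kinase gene Ret at least 25.4-fold lower (160.2, 124 and 160.3 in Dnmt mGS and 3519, 4280.3 and 4530.5 in GS), the RNA-binding protein gene Nanos3 at least 15.4-fold lower (134, 143 and 145 in Dnmt mGS and 1841, 2981 and 2772 in GS) and the GDNF-responsive repressor Bcl6b at least 12.1-fold lower (127, 79.2 and 252 in Dnmt mGS and 862, 3131 and 2757 in GS). The 6 that rose are Utf1, Cdh1, Upp1, Kit, Etv5 and Sall4, of which Utf1, Cdh1 and Sall4 are also pluripotency or epithelial genes. Cdh1 (E-cadherin) stood at 3170.2, 3481 and 3200.5 in Dnmt mGS, against 337, 249.5 and 210 in GS (12.6-fold higher), and Kit, the stem cell factor receptor, at 1527, 1509 and 559.7 in Dnmt mGS, against 301, 225 and 194 in GS. Line 3 was the lowest Dnmt mGS line for Kit. Dmrt1 stood at 218, 220.1 and 665 in Dnmt mGS, against 4219.5, 3400.2 and 3379 in GS (11.5-fold lower) and did not differ past the test from the other routes (log2 0.16 ± 0.35), which include the lines with Dmrt1 knock-down. Against the other routes 8 of the 35 were lower and 1 higher, beside 10.4% and 8.85% of all genes. Without Dnmt mGS line 1 or line 2, 2 were lower and none was higher (223 or 785 of all genes lower, 319 or 702 higher). Egr2, an early response gene of GDNF signalling, lay under background in all Dnmt mGS lines (115, 115 and 127) and at 1403, 1687 and 1464 in GS, and below every line of the other routes, which ran from 131 to 1099 (log2 -2.06 ± 0.20, adjusted p = 6.12e-05). Ret was lower (log2 -0.61), lost without line 2 (-0.49), and so was Gfra1, the GDNF co-receptor (-0.67), lost without line 1 (-0.66) or line 2 (-0.49).

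Signalling genes of the GDNF, FGF and LIF pathways rose in 9, fell in 11 and did not pass in 20 of 40 members, beside 19.1% and 30% of all genes, so that the list was close to all genes. The GDNF receptor subunits Gfra1 (228, 179 and 299 in Dnmt mGS and 1593, 2069.5 and 2835 in GS, 9.16-fold lower) and Ret fell. The ERK phosphatase genes Dusp5 and Dusp6 fell too, Dusp5 at 235, 334 and 309.7 in Dnmt mGS and 1056, 1206 and 1708 in GS (-2.16 ± 0.25) and Dusp6 at 252, 229 and 1092 in Dnmt mGS and 1138, 3169.8 and 2925 in GS (-2.46 ± 0.70). Spry4, an inhibitor of the ERK pathway (159, 104 and 2263 in Dnmt mGS and 398, 1323 and 1360.2 in GS), did not pass, and for Dusp6 and Spry4 line 3, the line with the high feeder level, was more than 4-fold above lines 1 and 2 (the part of feeder cells was not tested). The FGF-binding protein gene Fgfbp1 rose by 1.93 on the log2 scale. The ETS factor gene Etv1 rose (492, 838 and 913 in Dnmt mGS and 102, 58.9 and 51 in GS), and so did its relative Etv5 (3732, 3377 and 3230.2 in Dnmt mGS and 484, 1864 and 1765 in GS) and Socs2 (2.35), a feedback inhibitor of cytokine receptors. Of the LIF pathway Il6st (gp130) rose by 0.62, Jak1 and Jak2 fell (-1.45 and -1.15), and Lifr did not pass (0.68). Of the 40, 9 were lower and 1 (Lifr, 0.85, lost without line 1 at 0.74) higher than in the other routes, beside 10.4% and 8.85% of all genes. Without line 1 the counts were 1 lower and 1 higher (223 and 319 over all genes). Without line 2 they were 3 and 2 (785 and 702), and without line 3 they were 15 and 1 (2397 and 2053). The feeder and fibroblast genes had a median of -1.17 in the same comparison, and their part was not tested. Dusp4, a further ERK phosphatase, averaged 239 in Dnmt mGS and 672 in the other routes (log2 -1.49 ± 0.35, lost without line 1 at -1.07).

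**Figure D4:**
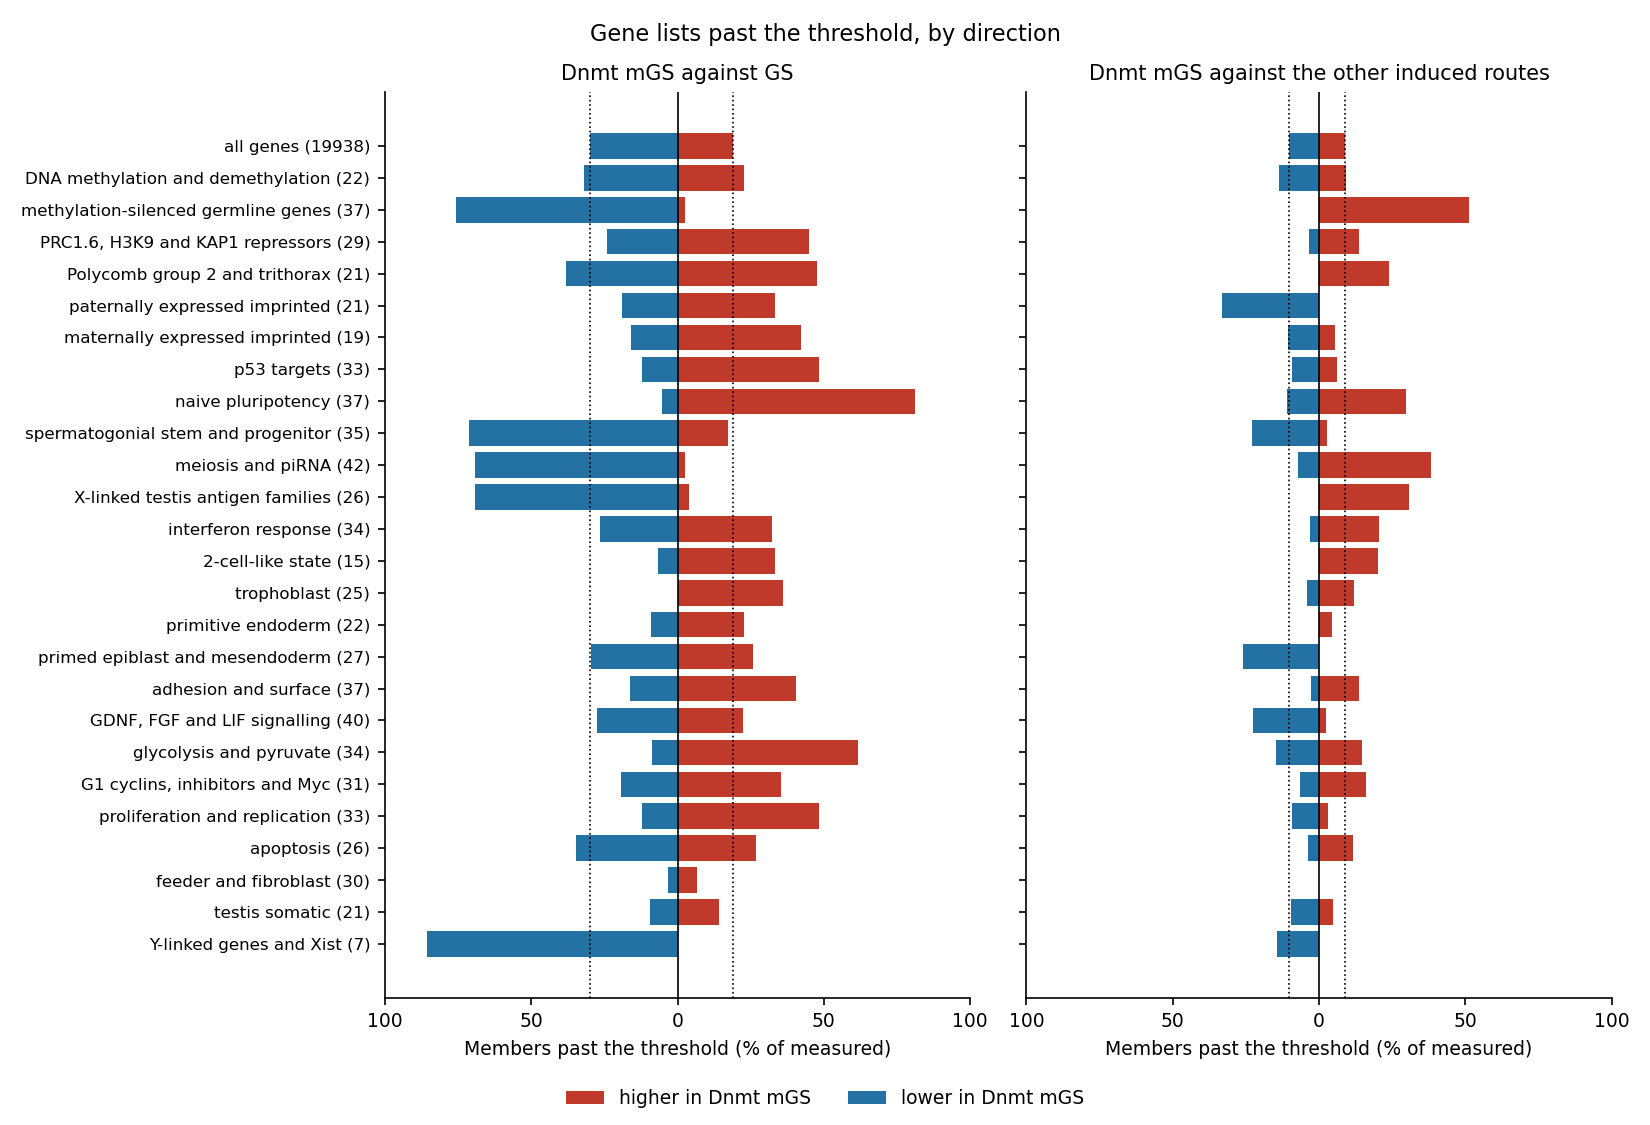
Percent of the measured members of each gene list that passed the test, higher (right of 0) or lower (left of 0) in Dnmt mGS, against GS in the left panel and against the other induced routes in the right panel. Dotted lines mark the same percent over all genes (19.1% and 30% against GS, 8.85% and 10.4% against the other routes), and the germline list is the one with 19 of 37 members higher on the right.

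Genes induced by p53, whose knock-down all induced lines share, rose more often than they fell: 16 rose, 4 fell and 13 of 33 did not pass (median 0.54), beside 19.1% and 30% of all genes. Without Dnmt mGS lines 1, 2 and 3 in turn, 15, 12 and 13 rose and 1, 1 and 6 fell. Without GS lines 1, 2 and 3 in turn, 13, 12 and 13 rose and 1, 2 and 2 fell. The 4 that fell are Btg2, Pmaip1, Mdm2 and Trp53i11. Mdm2, the p53 ubiquitin ligase, stood at 991, 1189 and 1868 in Dnmt mGS, against 2521, 2783 and 2725 in GS (log2 -1.04 ± 0.26). Btg2, an antiproliferative gene, stood at 436, 338 and 1051 in Dnmt mGS and 2001, 1137 and 1112 in GS, a call lost without GS line 1 (-1.07), Dnmt mGS line 1 (-1.19) or line 2 (-1.01). Pmaip1 (Noxa) lost its call without Dnmt mGS line 1 or 2 (-1.03 each) or any GS line (-1.31 to -1.09), and Trp53i11 without any line but Dnmt mGS line 3 (-1.03 to -0.62). The highest rises were those of Psrc1 (513, 1077 and 1908 in Dnmt mGS and 280.2, 157 and 159 in GS, 5.32-fold), a microtubule protein, Zmat3 (379.9, 537 and 888 in Dnmt mGS and 176, 98.4 and 93.5 in GS, at least 3.51-fold), an RNA-binding p53 target, Pltp (1511, 1302 and 1192 in Dnmt mGS and 338, 258 and 268 in GS, 4.64-fold), a lipid transfer protein, and Eda2r (195, 466 and 857 in Dnmt mGS and 172, 92.7 and 98.4 in GS, at least 2.65-fold), a receptor of the TNF family. In Mdm2, Psrc1, Zmat3 and Eda2r the Dnmt mGS values were lowest in line 1 and highest in line 3. Compared with the other routes, 2 were higher (Sesn1, 0.58, and Ei24, 0.49) and 3 lower (Trp53i11, Pmaip1 and Btg2), beside 8.85% and 10.4% of all genes. Without line 1 there was 1 higher and none lower (319 and 223 over all genes). Without line 2 none passed (702 and 785 over all genes), and without line 3 there were 3 higher and 14 lower (2053 and 2397). The Sesn1 call was lost without line 1 (0.55) or line 2 (0.485) and the Ei24 call without line 2 (0.43). The 3 lower calls (-1.20, -1.15 and -1.11) were lost without line 1 or line 2.

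Apoptosis genes split into 7 higher, 9 lower and 10 not called of 26, beside 19.1% and 30% of all genes. Without GS line 2 there were 3 higher and 5 lower, and without GS line 3 there were 6 and 4. Bak1, a pore-forming effector, rose most (2073, 2307 and 1835 in Dnmt mGS, against 185, 78.1 and 63.6 in GS, at least 12.8-fold higher), followed by the survival gene Mcl1 (2207, 2561 and 2622 in Dnmt mGS and 799.5, 930 and 950.3 in GS, log2 1.46). Casp2 fell most (734, 787 and 672 in Dnmt mGS and 1720.2, 2138 and 1906 in GS, log2 -1.39), and the survival gene Bcl2l1 (Bcl-xL) fell by 0.68. Casp9 also fell (-0.36, lost without Dnmt mGS line 2 or 3), and Xiap rose (0.49, lost without line 1 or 2). Relative to the other routes, Bid (0.39), Casp9 (0.41) and Xiap (0.41) were higher and Pmaip1 was lower, beside 8.85% and 10.4% of all genes. Without line 1 none of these passed, and without line 2 the calls of Casp9 (0.37), Xiap (0.28) and Pmaip1 (-0.98) were lost.

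Cell cycle genes of the transition into S phase rose in 11, fell in 6 and did not pass in 14 of 31 members, beside 19.1% and 30% of all genes. Ccne1 (cyclin E1) stood at 2648, 2682 and 4032 in Dnmt mGS, against 430.5, 582 and 609 in GS (5.72-fold higher), the E2F gene E2f4 rose by 1.34, the pocket protein gene Rbl2 by 1.63 and the inhibitor gene Cdkn1b (p27) by 1.12 on the log2 scale. Rb1, the retinoblastoma gene, ran the other way (213, 386 and 532 in Dnmt mGS, against 2376, 2467 and 2399 in GS, 6.85-fold lower), and Ccnd2 (cyclin D2) fell as well (595, 190.1 and 3068 in Dnmt mGS and 3381, 4632 and 5505 in GS, log2 -2.65 ± 0.89), with line 3 far above line 2. Its call was lost without GS line 2 or 3 (-2.62 and -2.49) or Dnmt mGS line 1 or 2 (-2.53 and -1.71). Mxd4, a Max partner, fell too (log2 -1.23). Myc did not pass, with Dnmt mGS lines at 192, 55.4 and 1552 and GS lines at 228, 107 and 96.2. Genes of proliferation and replication rose in 16, fell in 4 and did not pass in 13 of 33 (also beside 19.1% and 30%), with Rrm2, the small subunit of ribonucleotide reductase, highest (3019.5, 3447 and 2989 in Dnmt mGS and 520.4, 818 and 887 in GS, 4.35-fold higher) and Fen1, a flap endonuclease, lowest (396, 581 and 413 in Dnmt mGS and 585, 749 and 745 in GS, log2 -0.59). In comparison with the other routes, 5 of the 31 cell cycle genes were higher (Cdk2, Cdkn2a, Cdkn2d, E2f2 and Mxd3) and 2 lower (E2f7 and Mycl), beside 8.85% and 10.4% of all genes. Without line 1 only 1 was higher and none lower (319 and 223 over all genes). Without line 2 there were 3 higher and none lower (702 and 785), and without line 3 there were 5 higher and 8 lower (2053 and 2397). The calls of Cdk2 (0.54 and 0.41), Cdkn2a (0.43 and 0.40), E2f7 (-0.495 and -0.63) and Mycl (-0.62 and -0.77) were lost without line 1 or line 2, that of Mxd3 (0.42) without line 1, and those of Cdkn2a (0.43) and Mycl (-0.54) also without line 3. E2f2 (log2 0.53) kept its call without any single Dnmt mGS line.

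Glycolysis and pyruvate genes rose in 21, fell in 3 and did not pass in 10 of 34 (median 0.61), beside 19.1% and 30% of all genes. The phosphofructokinase genes Pfkl (1859, 1199 and 1447 in Dnmt mGS, against 185, 79.4 and 68.8 in GS, at least 9.16-fold higher) and Pfkp (2621, 3341 and 2392 in Dnmt mGS, against 204, 333 and 199.6 in GS, 11.6-fold higher) led, with the kinase gene Pgk1 (4642, 4531 and 3976 in Dnmt mGS and 1161, 324 and 319 in GS, 8.86-fold) and the glucose transporter gene Slc2a3 (6028, 5895 and 4407 in Dnmt mGS and 937, 595 and 626 in GS, 7.65-fold). GS line 1 was the highest GS line for Pfkl and Pgk1. The 3 that fell were Tktl1, the testis form Pdha2 (127, 114 and 118 in Dnmt mGS and 956, 1103 and 412 in GS) and the kinase gene Pdk3 (log2 -0.81), and of these Tktl1 and Pdha2 are germline genes. Compared with the other routes, 5 were higher and 5 lower, beside 8.85% and 10.4% of all genes. Without line 1 the counts were 3 and 3 (319 and 223 over all genes). Without line 2 they were 2 and 3 (702 and 785), and without line 3 they were 2 and 4 (2053 and 2397). Ldha, the lactate dehydrogenase A subunit, averaged 5681 in Dnmt mGS and 8178 in the other routes (log2 -0.53 ± 0.09), and no Dnmt mGS line reached the range of those routes (5812 to 9679). Slc2a1 was lower too (-0.78 ± 0.14), while its call against GS was lost without Dnmt mGS line 1 (0.45) or line 3 (0.355). Ldhc, the testis lactate dehydrogenase, ran the other way (283, 372 and 390.3 in Dnmt mGS, 339.9, 345 and 269 in GS and 108 to 264 in the other routes) and did not pass against GS. Its Dnmt mGS lines lay above all lines of the other routes (log2 1.13 ± 0.17). The calls of Ldha, Slc2a1 and Ldhc were kept without any single Dnmt mGS line.

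Interferon response genes rose in 11, fell in 9 and did not pass in 14 of 34, beside 19.1% and 30% of all genes. The RNA sensor gene Ddx58 (RIG-I) stood at 1784, 1034 and 1629 in Dnmt mGS, against 212, 108 and 148 in GS (at least 8.95-fold higher), and Xaf1, an interferon-induced regulator of cell death, at 778, 739 and 312 in Dnmt mGS, against 183, 122 and 119 in GS (at least 3.5-fold higher). The sensor gene Ifih1 (MDA5) ran the other way (122, 112 and 175 in Dnmt mGS and 474, 431 and 324 in GS, at least 2.51-fold lower), as did the transcription factor gene Irf1 (565, 588 and 779.9 in Dnmt mGS and 2517, 2037 and 1962 in GS, log2 -1.76) and Oasl2 (114, 69.3 and 680.4 in Dnmt mGS and 2242, 1023 and 1654 in GS, log2 -3.15 ± 0.94), whose call was lost without Dnmt mGS line 2 (-2.49). The membrane protein genes Ifitm2 and Ifitm3 rose (1.69 and 1.34), and Rsad2 (viperin) fell (-1.42). The classical targets Ifit1, Ifit2, Irf7 and Mx1 did not pass and lay under background in both group means, and Ifnb1, which encodes interferon beta, did as well (85.8, 83.2 and 86.6 in Dnmt mGS and 86.2, 95.8 and 102 in GS). Relative to the other routes, 7 were higher and 1 lower, beside 8.85% and 10.4% of all genes. Without line 1 only 1 was higher, without line 2 there were 3, and none was lower in either case. Over all genes 319 and 702 were then higher, and 223 and 785 lower. The higher genes included Xaf1 (1.76 ± 0.37, lost without line 1 at 1.53), Stat2 (0.96 ± 0.17), Oas1a (0.86) and Mavs (0.84), the last 2 lost without line 1 or line 2 (0.91 and 0.66 for Oas1a, 0.74 and 0.71 for Mavs). The calls against GS were lost for Stat2 without Dnmt mGS line 1 or 2 and for Mavs without line 2 (0.76).

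Of 15 genes of the 2-cell-like state 5 rose, 1 fell and 9 did not pass, beside 19.1% and 30% of all genes. The PRAME family genes Pramel6 and Pramel7, which are expressed in preimplantation embryos, rose most. Pramel6 stood at 1113, 653 and 419 in Dnmt mGS, against 69.3, 69.8 and 72.2 in GS (at least 4.17-fold higher) and Pramel7 at 839.9, 675 and 319.8 in Dnmt mGS, against 115, 71.5 and 109 in GS (at least 3.51-fold higher), in both highest in line 1 and lowest in line 3. The other routes ran from 57.5 to 439 and from 109.7 to 654, with Dnmt mGS higher by 2.87 ± 0.48 and 1.88 ± 0.55 on the log2 scale. Pramel7 lost that call without line 1 (1.597) or line 2 (1.75). Zfp352 and Tcstv3, which mark the 2-cell state more narrowly, lay under background in every line of both groups. Arg2 fell (80.2, 84.2 and 85.6 in Dnmt mGS and 184, 253 and 287 in GS).

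Trophoblast genes rose in 9 of 25 members, fell in none and did not pass in 16 (median 0.62), beside 19.1% and 30% of all genes. Plet1 (2470, 3732 and 1354 in Dnmt mGS, against 98.1, 145 and 125 in GS, at least 14.4-fold higher), a surface protein gene, led, with Bmp4 (1721, 862 and 2309 in Dnmt mGS and 250.3, 123 and 94.2 in GS, at least 9.35-fold), Tead4 (1092, 974 and 492 in Dnmt mGS and 64.8, 100.3 and 94.5 in GS, at least 5-fold) and the keratin gene Krt18 (809, 695 and 1100.4 in Dnmt mGS and 124, 134 and 309 in GS, 4.95-fold). The defining trophoblast factors Cdx2 (115, 117 and 119.6 in Dnmt mGS and 117, 142 and 141 in GS), Elf5, Gata3 and Plac1 lay under background in both group means and did not pass. Of 22 primitive endoderm genes 5 rose, 2 fell and 15 did not pass, beside the same shares of all genes. Lama1, a laminin chain, rose (1454, 473 and 670.5 in Dnmt mGS, against 144, 115 and 103 in GS, at least 4.79-fold higher), and it was the only one higher than in the other routes (log2 1.31 ± 0.31, lost without line 1 at 0.86). Gata6 rose to 337, 312 and 354 in Dnmt mGS, against 182, 102 and 166 in GS, while Gata4 (0.24) and Sox17 (0.29, under background) did not pass.

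Primed epiblast and mesendoderm genes rose in 7, fell in 8 and did not pass in 12 of 27 against GS, close to the 19.1% and 30% of all genes. Otx2, a homeobox gene of the epiblast, stood at 848, 754 and 1110.3 in Dnmt mGS, against 42, 32 and 32 in GS (at least 5.53-fold higher), Cldn6 at 1223, 1347 and 2295 in Dnmt mGS and 89.4, 84.2 and 90.8 in GS (at least 9.66-fold) and Zic5 at 1449.6, 1436 and 1509 in Dnmt mGS and 156, 80.3 and 65.2 in GS (at least 9.08-fold). Wnt3 (84.7, 84.5 and 90.6 in Dnmt mGS and 638, 492 and 535 in GS, at least 3.42-fold lower), Lhx1 (94.4, 85.9 and 94 in Dnmt mGS and 395, 817 and 1554 in GS, at least 4.93-fold lower) and Sox4 (128, 113 and 357 in Dnmt mGS and 1139.6, 1320.5 and 1184 in GS, log2 -2.81) fell. Of the 27, 7 were lower than in the other routes and none was higher (median -0.46, beside 10.4% and 8.85% of all genes), namely Fgf5, Sox4, Dnmt3b, Otx2, Zic2, Kdr and Sox3. Fgf5, the growth factor of the primed epiblast, was at 87.6, 42.2 and 254 in Dnmt mGS, 39.7, 37 and 34.3 in GS and 49.7 to 2586 in the other routes (log2 -2.74 ± 0.91, adjusted p = 0.0449). It was lost without line 1 (-2.66) or line 2 (-2.13). Without line 1 none of the 27 was lower, and without line 2 only 1 was, when 223 and 785 of all genes were lower. The feeder and fibroblast genes had a median of -1.17 in the same comparison. Over the 27 genes the geometric mean was 288, 271 and 403 in Dnmt mGS lines 1, 2 and 3, beside feeder levels of 453, 257 and 1487, and the part of feeder cells was not tested.

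Adhesion and surface genes rose in 15, fell in 6 and did not pass in 16 of 37, beside 19.1% and 30% of all genes. Apart from Cdh1 and Cldn6, the claudin gene Cldn4 (1540.2, 1056 and 1231 in Dnmt mGS and 91.3, 109 and 100 in GS, at least 7.82-fold higher), Pecam1 (2036, 2266 and 969 in Dnmt mGS and 136, 140.3 and 121 in GS, at least 10.2-fold higher) and Bcam (784, 641 and 921 in Dnmt mGS and 68.8, 65.6 and 68.3 in GS, at least 4.8-fold higher) rose, and the tight junction genes Ocln (164, 194 and 200.4 in Dnmt mGS and 1201, 805 and 811 in GS, 4.98-fold lower) and Tjp1 (log2 -1.20) fell. The stromal genes Cd44, Thy1 and Cdh11 did not pass and were highest in Dnmt mGS line 3 (1585, 2498 and 2708), the line with the highest feeder level. Thy1 and Cdh11 are themselves members of the feeder and fibroblast list, and the part of feeder cells was not tested. In comparison with the other routes, 5 were higher and 1 lower, beside 8.85% and 10.4% of all genes. Without line 1 there was 1 higher and without line 2 there were 3 (319 and 702 of all genes). Leaving out line 3 gave 4 higher and 7 lower (2053 and 2397 of all genes). Among the higher was Itgb3 (354, 359 and 289 in Dnmt mGS, 221, 218 and 203 in GS and 122 to 319 in the other routes, log2 0.82 ± 0.12), which kept its call without any single Dnmt mGS line. Icam1 was higher by 1.000, lost without line 1 (0.92), and Pecam1 by 1.95, lost without line 1 (1.80) or line 2 (1.72).

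Y-linked genes were low in all Dnmt mGS lines. Usp9y, a Y-linked deubiquitinase gene, stood at 50.7, 62.6 and 64.4 in Dnmt mGS, against 3939, 3466 and 3497 in GS (at least 22.5-fold lower, log2 -5.95 ± 0.13), and the other routes ran from 51 to 73.9. Eif2s3y, a translation factor gene that is expressed in all male cells, stood at 31, 27.6 and 126 in Dnmt mGS, against 1022, 739 and 798 in GS, and the other routes at 107 to 1328 (log2 -2.47 ± 0.78, adjusted p = 0.0352, lost without line 1 at -2.16 or line 2 at -2.08). All 3 Dnmt mGS lines read under background for Eif2s3y, and Uty, a second broadly expressed Y gene, was at 28.8, 30 and 69.6 in Dnmt mGS and 477, 609 and 606 in GS. All 6 Y-linked genes measured fell, beside 30% of all genes, while Xist did not pass (189, 113 and 680.5 in Dnmt mGS and 311, 194 and 115 in GS). Line 3, the highest of the Dnmt mGS lines for Eif2s3y and Uty, had the highest feeder level, whose part in this was not tested.

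Beyond the lists, the genes with the highest log2 fold change whose lines did not overlap were Nanog, Nr0b1, Tdgf1, Gm6083, Jam2, Fgf4, Tet1, Apoc1, Gpa33, Amt, Gtsf1l and Mme. Jam2, a junction protein gene, stood at 4136, 3692 and 2037 in Dnmt mGS, against 108, 50 and 52.6 in GS (at least 19.5-fold higher), and Apoc1, an apolipoprotein gene, at 2779, 2648 and 1672 in Dnmt mGS, against 72.8, 49 and 52.8 in GS (at least 14.3-fold higher). Mme (neprilysin) stood at 1976, 1702 and 1381 in Dnmt mGS, against 48.2, 46.5 and 44.7 in GS (at least 10.3-fold higher), above every line of the other routes (471 to 1178), with a log2 difference of 1.43 ± 0.27 (adjusted p = 0.00377). The lowest were Mageb4, Zbtb16, Nxf2, Tuba3b, Zic1, Usp9y, Foxf1, Shcbp1l, Tdrd1, Adad1, Mapk10 and Ccdc172. Zic1, a zinc finger gene, stood at 158, 133 and 157 in Dnmt mGS, against 8382, 7964 and 11669 in GS (at least 57.1-fold lower) and Foxf1, a forkhead gene, at 249.8, 226 and 247 in Dnmt mGS, against 13029, 12909.5 and 10975 in GS (50.9-fold lower). Adad1, a testis RNA-binding protein gene, stood at 89, 112 and 115 in Dnmt mGS and 3643, 4191 and 2873 in GS (at least 21.9-fold lower), and Mapk10 (JNK3) at 87.5, 75 and 77.7 in Dnmt mGS and 2201, 3149.5 and 2607 in GS (at least 16.3-fold lower). In 11 of these 12 lowest genes the Dnmt mGS lines reached into the range of the other routes, and Adad1 lay below it (115 to 154).

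Against the other routes, the 10 genes with the highest difference were Srgn, Cd3g, Crygd, Pramel6, 1700013H16Rik, Smc1b, Gtsf1, Cpn1, Qpct and Khdc3. In each of them Dmrt mGS had the highest mean of the other routes, as with Srgn (1626, against 330 in Sox2 mGS and 465 in Oct4 mGS). Srgn (serglycin), a proteoglycan core gene, stood at 5595, 10233 and 3367 in Dnmt mGS, against 446, 659 and 994 in GS, with the other routes at 255 to 8019.9 (3.20 ± 0.78). Khdc3 (Filia), a maternal factor also known from ES cells, stood at 455, 437 and 466 in Dnmt mGS, against 32.5, 39.1 and 36.8 in GS, and Cpn1, a carboxypeptidase gene, at 1427, 1242 and 1398 in Dnmt mGS, against 185, 214 and 167 in GS. For Smc1b, Gtsf1, Cpn1 and Khdc3 all Dnmt mGS lines lay above all 9 lines of the other routes, which reached 1015 for Cpn1 and 324 for Khdc3. Khdc3 was not particular to Dnmt mGS, with means of 445.5 in ES cells and 412 in iPS cells. ES and iPS means were lower for Smc1b (184 and 93.4), Gtsf1 (154 and 81.7) and Cpn1 (399 and 306). For Srgn they were 815.5 and 4798. Among Dnmt mGS lines Cd3g was high in lines 1 and 2 only (1889, 1873 and 139), and the other routes ran from 57 to 1806. Crygd (676, 1006 and 409 in Dnmt mGS, 44.6, 49.5 and 42.4 in GS) and Qpct (1863, 1506 and 549.7 in Dnmt mGS, 82.1, 84.1 and 73.2 in GS) were lowest in line 3. The calls of Crygd, Pramel6, 1700013H16Rik, Gtsf1, Cpn1, Qpct and Khdc3 were kept without any single Dnmt mGS line, while Srgn and Cd3g lost theirs without line 1 (3.22 and 2.42) or line 2 (2.79 and 2.42).

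The 10 lowest were Fndc3c1, Sema6a, Lgr5, Kcnj3, Fgf5, Fosb, Vrtn, Eif2s3y, Pdzrn3 and Nnat. Lgr5, a Wnt pathway receptor gene, lay at 151, 88.7 and 114 in Dnmt mGS and 112, 195 and 169 in GS, and the other routes ran from 84 to 4562 (-2.87 ± 0.50). It was the only 1 of the 10 whose call was kept without any single Dnmt mGS line. Its mean was 115 in both Dnmt mGS and Dmrt mGS, under background, against 3534 in Sox2 mGS and 1465 in Oct4 mGS. The difference was thus from the Sox2 and Oct4 routes and not from the Dmrt route. Sema6a, a semaphorin gene, averaged 173 in Dnmt mGS and 1474 in the other routes and lost its call without line 1 (-2.88) or line 2 (-2.71). Fndc3c1 lost its call without line 1 (-3.66). Kcnj3 (-2.63 and -2.32), Fosb (-2.64 and -2.19), Vrtn (-2.43 and -1.84) and Pdzrn3 (-2.186 and -1.75) lost theirs without line 1 or line 2. In all 10 the lowest line of the other routes lay at or under the highest Dnmt mGS line.

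The Dnmt mGS lines differed from each other far more than their cultures. Counting genes more than 2-fold from the mean of the other 2 lines, with both cultures outside the range of the other 4 arrays and the brightest of the 3 lines above background, line 1 had 48 higher and 52 lower, line 2 had 84 higher and 412 lower, and line 3 had 659 higher and 165 lower. Among GS lines, line 1 had 330 higher and 131 lower, line 2 had 24 and 22, and line 3 had 26 and 65. The gene farthest above the other lines in line 1 was Pramel5, a PRAME family gene, at 8650 and 10632 in its cultures, against 168 in line 2, 161 in line 3, a GS mean of 166 and 111 to 190 in the other routes. Ube2dnl1 (1573, against 259 in line 2, 483 in line 3 and 69.2 to 174 in the other routes) stood apart less far. So did Akr1c18 (494, against 90.9, 187 and 68.5 to 137). Scml2, an X-linked Polycomb gene of the germline, was also highest in line 1 (1098, against 282 in line 2 and 458 in line 3, with a GS mean of 3661). Eda2r, Cck, Rgs16, Angptl7 and Trib2 were lowest in line 1. Cck, Rgs16, Angptl7 and Trib2 also lay under background in line 2, and line 3 was far above both.

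Line 2 was set apart by Dnmt1, which ranked second among its high genes at 2.12 above the mean of the other 2 lines on the log2 scale. It was also highest for Obox6 (454.5), Crxos (872) and Sgcz (335). Spic ranked first (1545), but line 1 was near it (1134) and line 3 was the line apart (84.2). Obox6 and Crxos are homeobox genes of early embryos. The low genes of line 2 were S100a6 (54.4, against 191 in line 1 and 1876 in line 3), Ccl2, Myc (55.4, against 192 in line 1), Penk and Tm4sf1. Ccl2 and Tm4sf1 also lay under background in line 1 (153 and 52.9). Line 3 was highest for Tm4sf1 (2396, against 52.9 in line 1 and 38.5 in line 2), Mmp3, Mgp, Ccl2 and Grem1, genes that fibroblasts express, and was lowest for Spic (84.2, against 1134 in line 1), Cd3g (139), 1700016D06Rik, Hesx1 and Spaca7. The high genes of line 3 go with its feeder level of 1487, against 453 in line 1 and 257 in line 2, and the part of feeder cells was not tested.

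**Figure D5:**
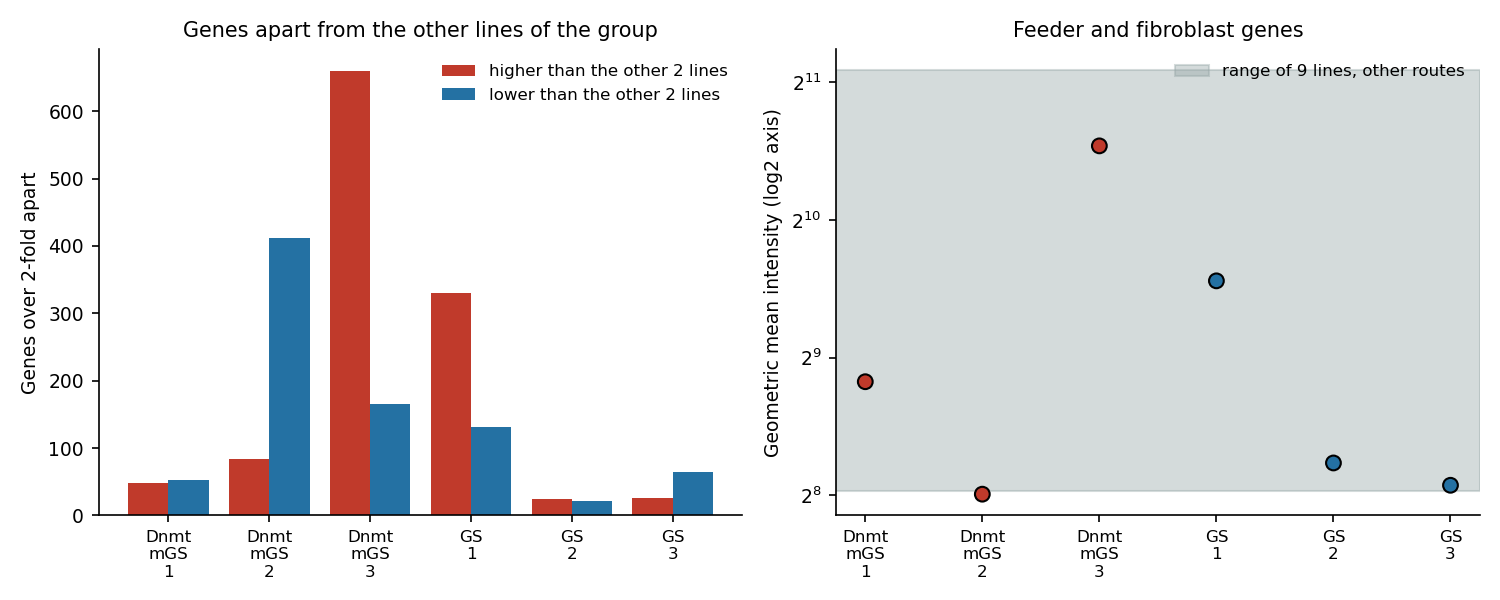
Left: number of genes in each Dnmt mGS and GS line that lie more than 2-fold above or below the mean of the other 2 lines. Right: geometric mean intensity of 30 feeder and fibroblast genes in each line, with a grey band for the 9 lines of the other routes (262 to 2174), and Dnmt mGS line 3 stands apart in both, with 659 genes higher and a feeder level of 1487.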

How the data were processed

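Total RNA of each culture was hybridised to 1-colour mouse whole-transcript arrays, 46 in all, per the labels' protocols. The authors deposited 1 linear intensity per probe set, from 16 upward, and named the build mm9 in the submitters' processing notes. The method of summarising and scaling, and any constant added, are not given in the sources used here.

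Deposited intensities were used as they stand, as log2 values with no offset. Of 28856 probe sets, 21789 carry 1 gene symbol in the platform annotation, 1621 carry several and 5446 carry none. Probe sets with 1 symbol gave 19938 genes, and 999 genes with several were represented by their brightest probe set. Of these 21789 probe sets, 21698 had a gene in RefSeq's table, and no symbol changed. Only the number of lines and the background level, not a read depth, limit the precision. The background level is the 95th percentile of the means of 1022 olfactory receptor genes, whose median was 65.

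The 2 cultures of a line were averaged. The limma package (version 3.58.1, in R 4.3.3) was fitted once over 23 lines in 8 groups (15 residual degrees of freedom, 2.71 prior degrees of freedom), with moderated tests of Dnmt mGS minus GS and of Dnmt mGS minus the equally weighted mean of the Dmrt, Sox2 and Oct4 mGS groups. p-values were adjusted by the Benjamini-Hochberg method over all genes, with a threshold of 0.05. The script was tested on data with known changes. Plots were drawn with matplotlib 3.10.9 and tables made with pandas 2.3.3 and numpy 2.4.6 in Python 3.11.15. Alternatives were quantile normalization, centring on array medians, an offset of 32, the dimmest 40% of genes left out, averaged probe sets, a trended prior, arrays in place of lines, a random block for the line (statmod 1.5.0), fits of only the groups compared, blocks for the line or culture number, and each line left out in turn.

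The groups, the gene lists and their members were chosen with earlier results of these data known. Named genes are all members of the DNA methylation list, up to 4 called members of each list in either direction, the 12 highest and 12 lowest changes against GS without overlap of lines, the 10 highest and 10 lowest called differences from the other routes, and the 5 genes farthest from the other lines in each direction for every Dnmt mGS line. Other genes of the lists named in the text were chosen for their role after their values were seen.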

Additional observations from a re-analysis of the deposited data

Results flagged for a closer look

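The change from GS in Dnmt mGS differed from the mean change in the Dmrt, Sox2 and Oct4 mGS routes for 3830 genes by limma's test of that difference, which is the same as the comparison of Dnmt mGS with those routes. The 10 highest differences on the log2 scale were 3.20 for Srgn, 3.05 for Cd3g, 2.98 for Crygd, 2.87 for Pramel6, 2.82 for 1700013H16Rik, 2.64 for Smc1b, 2.62 for Gtsf1, 2.62 for Cpn1, 2.62 for Qpct and 2.59 for Khdc3. The 10 lowest were -3.88 for Fndc3c1, -3.09 for Sema6a, -2.87 for Lgr5, -2.77 for Kcnj3, -2.74 for Fgf5, -2.62 for Fosb, -2.48 for Vrtn, -2.47 for Eif2s3y, -2.35 for Pdzrn3 and -2.26 for Nnat. Dnmt mGS lay under background for Fndc3c1, Lgr5, Kcnj3, Fgf5, Vrtn, Eif2s3y and Pdzrn3 (at least 4.78, 5.22, 5.31, 4.05, 4.005, 1.64 and 3.98-fold). The other routes lay under it for Cd3g, Crygd, Pramel6, 1700013H16Rik, Smc1b, Gtsf1 and Khdc3 (at least 4.9, 4.05, 4.17, 2.17, 4.12, 3 and 2.81-fold). The size and rank of these log2 differences are uncertain. Groups of 3 lines were too small to look for a single line far from the others by a test.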

How the results depend on the processing

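The count of 9797 genes called against GS ran from 6783 (line number as a replicate block) to 12635 (all arrays as independent samples), and leaving out 1 line gave 7894 to 10157. Of 171 named genes called against GS, 141 kept direction and call under every alternative run, 30 lost their call under at least 1, and none changed sign. The comparison with the other routes held less well. Its 3830 calls became 8946 with all arrays as independent samples, 1835 with only the groups compared and 1479 with the line number as a replicate block. Leaving out 1 line gave 542 (Dnmt mGS line 1) to 5434 (Dmrt mGS line 1), with 1487 without Dnmt mGS line 2. Of 114 named genes called there, 23 kept their call under every alternative, 91 lost it under at least 1 (88 without Dnmt mGS line 1, 68 without line 2) and none changed sign. Dnmt1 against GS stayed at -1.55 but missed the threshold with only the groups compared (adjusted p = 0.065) and with the line number as a replicate block (adjusted p = 0.0752). After group means were removed, lines of the same number correlated at -0.138, 0.156 and -0.211, and lines of different numbers at -0.218 to 0.25. With 3 lines in a group these values cannot decide whether lines of the same number share an origin. Among genes not called against GS, the sign turned for Dnmt3a without Dnmt mGS line 3 (-0.40, range to 0.58 without line 1), for Gadd45a without line 3 (-0.41, to 0.40 without line 2) and for Mbd4 without line 2 (-0.065, to 0.41 without line 3). The causes were not tested. Differences between genes under the background level of 161 were not resolved.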
